A study of Mus musculus with 8 samples.

Results

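The genes described here encode calprotectin and the proteins that neutrophils store in their granules, with the surface protein by which mouse neutrophils are usually recognised. They are S100a8, S100a9, Ly6g, Lcn2, Ngp, Camp, Ltf, Mmp8, Mmp9 and Mpo, and they were taken by name from the gene column of 8 single-colour Agilent arrays, with control spots left out. These 10 genes were read by 13 of the 56605 probes, and all 10 were among the 18605 genes that passed the filter on dim probes. RNA came from peritoneal macrophage preparations of 4 Card9-/- and 4 wild-type (wt) samples, 1 array each. Card9-/- mice lack Card9, the adaptor through which receptors for yeast cell walls such as Dectin-1 signal. Mice of both genotypes had been given 1 ml of 3% thioglycolate, an irritant that draws leukocytes into the peritoneum, and zymosan, a yeast cell wall preparation, at 500 mg/kg intraperitoneally for 4 h. The peritoneal cells were taken 4 days after thioglycolate, red cells were lysed, and the cells that adhered within 3 h were kept. Cells were gathered from 4 or 5 mice per group, and whether an array holds 1 mouse or a pool is not given, so p-values measure only the spread between these samples. Strain, age and the deleted part of Card9 are not given in the sources used here, and samples without zymosan were not analysed here.

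Neutrophils make their granule proteins in waves while they mature in the bone marrow. Myeloperoxidase enters the azurophil granules at an early stage, lactoferrin, lipocalin 2, cathelicidin and collagenase enter the specific granules later, and gelatinase fills the granules formed last. S100A8 and S100A9 pair as calprotectin, a cytosolic protein that binds calcium, zinc and manganese and starves microbes of metals. Zymosan in the peritoneum is a standard model of inflammation in which neutrophils enter within hours, and their RNA can accompany that of macrophages in a preparation. In RNA from a mixture of cells, fewer cells of a type and less RNA per cell cannot be told apart.

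Each Agilent probe is a stretch of 60 bases, and what it matches decides which transcript it reads. The probes below are those that share a run with another gene's probe and 2 that cross an exon junction, with a calprotectin and a lactoferrin probe for comparison. They are the sequences deposited with the arrays, 5′ to 3′, and their positions are those of the files on build mm9. The S100a8 probe lies at chr3:90473778-90473837 on the plus strand, the Ly6g probe at chr15:74989023-74989082 on the plus strand and the Ltf probe at chr9:110942873-110942932 on the plus strand. The fainter Lcn2 probe (chr2:32241037-32241281, minus strand), the Ngp probe (chr9:110324266-110324814, plus strand) and the brighter Mmp9 probe (chr2:164779091-164780300, plus strand) each span more genome than their length and so cross an exon junction. The brighter Mpo probe (chr11:87617102-87617877, plus strand) crosses a junction too and is not printed. Capitals mark the longest run that a probe shares with a probe of another gene name on the array, searched from 16 bases up.
S100a8: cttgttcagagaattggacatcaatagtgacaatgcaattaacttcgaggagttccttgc
Ly6g: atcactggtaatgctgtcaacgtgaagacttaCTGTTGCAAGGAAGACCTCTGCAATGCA
Lcn2: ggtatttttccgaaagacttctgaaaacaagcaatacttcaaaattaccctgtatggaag
Ngp: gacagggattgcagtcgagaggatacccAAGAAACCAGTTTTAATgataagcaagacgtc
Ltf: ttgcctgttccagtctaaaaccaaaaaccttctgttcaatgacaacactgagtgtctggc
Mmp9: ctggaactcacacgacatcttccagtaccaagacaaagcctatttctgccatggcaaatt
The Ly6g probe shared a run of 28 bases with a probe filed under an Ensembl transcript name, so other RNA that carries those bases may add to its signal. The Ngp probe shared 17 bases with a Poglut3 probe, and the other 11 member probes shared no run of 16 bases or more with another gene. S100a8 and S100a9 lie 22.8 kb apart on chromosome 3, and Camp, Ngp and Ltf lie on chromosome 9, with Camp 0.57 Mb from Ngp and Ngp 0.62 Mb from Ltf. Lcn2 and Card9 are both on chromosome 2, 6.03 Mb apart, and Mmp9 is on the same chromosome 138.57 Mb from Card9.

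The arrays differed among themselves in ways that bear on every value below. An array had 59305 spots besides controls, of which 47.8% to 56.5% were well above background and 0 were saturated. A level is the log2 processed signal relative to the 75th percentile of its array, and 0 stands for that percentile. All 4 wt arrays shared slide 1 and a scan with Card9-/- array 4, Card9-/- arrays 1 and 3 were on slide 2 and Card9-/- array 2 on slide 3. Card9 was not well above background on any of the 4 Card9-/- arrays, with levels of -5.93, -5.48, -4.77 and -5.43 on Card9-/- arrays 1 to 4, against -6.21, -3.66, 1.48 and -0.67 on wt arrays 1 to 4. It was well above background on 3 of 4 wt arrays, the library labelled wt replicate 1 being the exception. At this probe, the brighter for Card9, the measured difference was -3.14 (limma adjusted p = 0.688). With the Card9-/- levels raised to the lowest level well above background on their arrays, Card9-/- was 2.78-fold lower. This is no strict bound, since wt array 1, itself not well above background, entered as measured. That fold rested on wt array 3, being 1.17-fold without it and 1.92-fold without wt array 4. Leaving out the library labelled wt replicate 1 gave 6.92-fold. The fold measured after normexp background correction was 2.31. The fainter Card9 probe was well above background on 0 Card9-/- and 2 wt arrays. Taken the same way, its fold was 0.94, so it set no limit on a lower level in Card9-/-, and after normexp correction it differed by 0.11. There Card9-/- array 4, at -3.40, lay above wt arrays 1, 2 and 4, at -4.80, -4.57 and -4.44. The 5 genes that passed an adjusted p of 0.05 (0.0269% of 18605) lie on the sex chromosomes. The Y-linked Ddx3y, Eif2s3y, Uty and BX528370 were well above background on 4 Card9-/- and 0 wt arrays, and XIST was on 0 Card9-/- and 4 wt arrays, so sex and genotype cannot be told apart here.

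No member passed the test between genotypes. With limma and Benjamini-Hochberg adjustment over all genes tested, 0 of 10 members had an adjusted p under 0.05, against 0.0269% of all genes, and 0 of 10 had an unadjusted p under 0.05, against 7.23% of all genes (2.64% higher and 4.59% lower in Card9-/-). The adjusted p of the members ran between 0.767 and 0.988. Of the 10 differences of level, Card9-/- minus wt, 5 were above 0 and 5 below, with a median of -0.021 on the log2 scale, beside -0.088 over the other 18595 genes. The differences spanned -1.14 for Ly6g to 1.29 for Mpo. By the exact two-sided permutation test over the 70 assignments of arrays, whose smallest possible p is 0.0286, the 13 probes gave p between 0.171 and 0.943 (0.943 for each after adjustment over the 13), and no probe separated the genotypes. The spread between arrays was wide. The median member covered 4.60 log2 units between its lowest and highest array, against 2.17 for the median of the other genes tested. The median SD was 1.66 among Card9-/- arrays and 1.29 among wt arrays for the members, against 0.594 and 0.675 for the other genes. The median SE of the difference was 1.01, against 0.501.

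**Figure D1:**
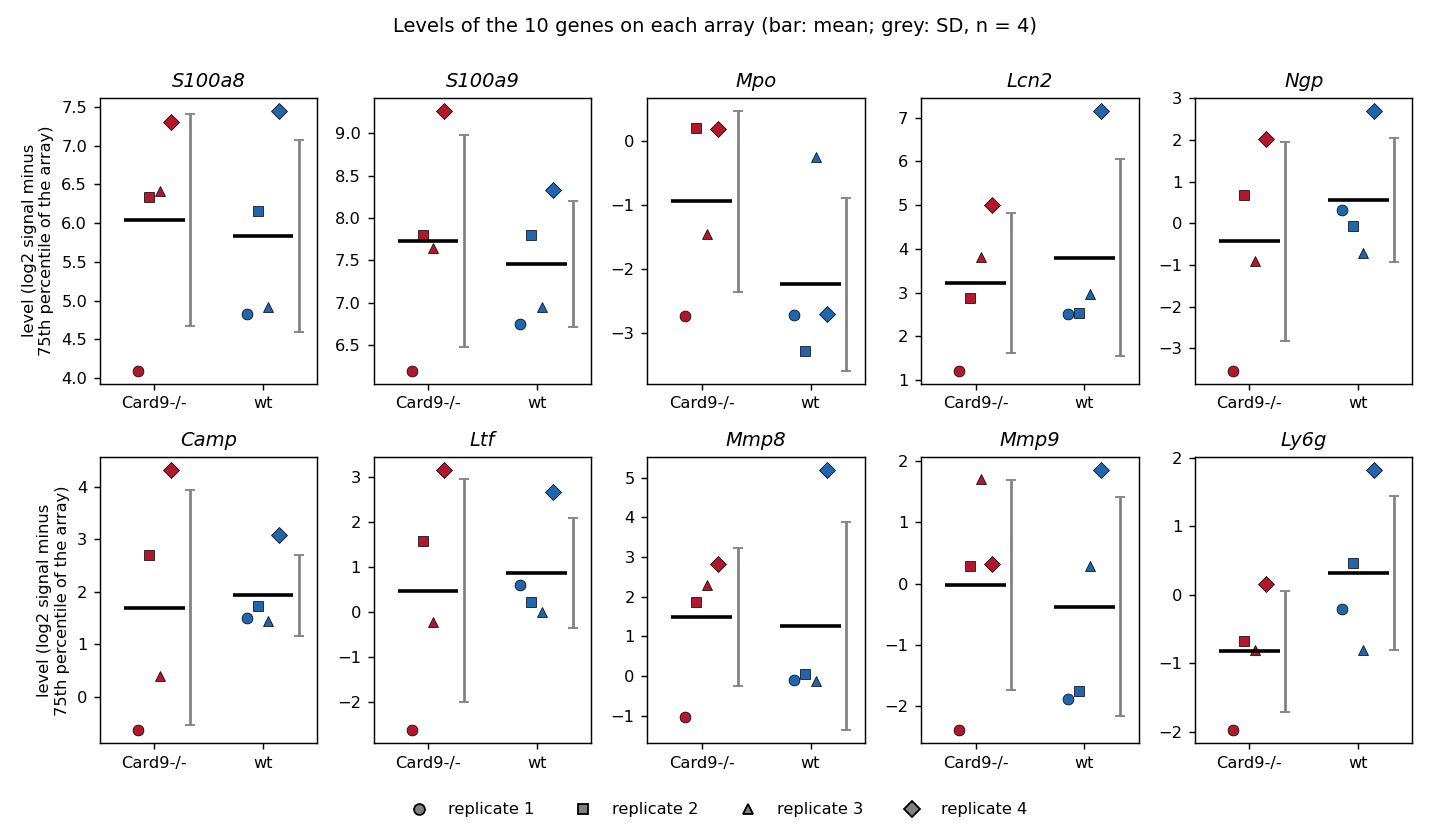
Level of each gene on each array, as log2 processed signal minus the array's 75th percentile, with Card9-/- arrays in red at the left of each panel and wt arrays in blue at the right (black bar, mean; grey bar, SD, n = 4; marker shape, replicate number). In each panel the 2 genotypes overlap, and wt replicate 4 (blue diamond) or Card9-/- replicate 4 (red diamond) is highest for 9 of 10 genes. Of 18595 genes tested, wt replicate 4 was highest for 2061 and Card9-/- replicate 4 for 3017.

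Calprotectin RNA varied several-fold within each genotype and did not differ between them by more than that spread. S100a8, which encodes the lighter calprotectin subunit, had levels of 4.09, 6.34, 6.41 and 7.30 on Card9-/- arrays 1 to 4, against 4.83, 6.16, 4.91 and 7.45 on wt arrays 1 to 4. Array 4 was highest in each genotype, array 1 lowest in each, and the Card9-/- range overlapped nearly all of the wt range. The group means were 6.04 ± 1.37 in Card9-/- and 5.84 ± 1.24 in wt (SD, n = 4 each). The difference was 0.20 (SE 0.79, limma adjusted p = 0.981), with a 95% interval from a 0.334-fold to a 3.94-fold ratio. S100a9, the heavier subunit, had levels of 6.20, 7.80, 7.65 and 9.27 on Card9-/- arrays 1 to 4, against 6.75, 7.80, 6.95 and 8.34 on wt arrays 1 to 4. The order was nearly that of S100a8, but Card9-/- array 4 exceeded wt array 4, and Card9-/- array 1 was again lowest. The difference was 0.27 (SE 0.65, limma adjusted p = 0.961), with an interval from 0.438-fold to 3.33-fold. Both signs rested on single arrays. S100a8 gave -0.22 without Card9-/- array 4, -0.14 without wt array 1 and -0.11 without wt array 3, and S100a9 gave -0.24 without Card9-/- array 4.

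Mpo, which encodes myeloperoxidase, the enzyme of azurophil granules that makes hypochlorous acid, had the largest positive difference of the 10 genes and a pattern unlike the others. The brighter probe had levels of -2.73, 0.20, -1.45 and 0.18 on Card9-/- arrays 1 to 4, against -2.71, -3.29, -0.26 and -2.70 on wt arrays 1 to 4. Card9-/- arrays 2 and 4 were highest, wt array 3 came next, and Card9-/- array 1 lay among the 3 low wt arrays. The group means were -0.95 ± 1.42 in Card9-/- and -2.24 ± 1.35 in wt (SD, n = 4 each). The difference was 1.29 (SE 0.83, 95% interval -0.58 to 3.17, limma adjusted p = 0.805). It stayed above 0 whichever array was left out (0.91 to 1.95). When limma's array weights were used, the difference was 2.38 with an adjusted p of 0.0487. That setting called 587 of 18605 genes, against 5 in the main fit. It gave wt arrays 1 and 2, both low for Mpo, weights of 3.05 and 7.69, and wt arrays 3 and 4 weights of 0.187 and 0.353. Over all alternatives the limma adjusted p for Mpo ran between 0.0487 and 0.960. The fainter Mpo probe was well above background on 1 of 8 arrays, Card9-/- array 2, so no fold is given for it.

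The specific granule genes Ngp, Camp and Ltf moved together from array to array and did not differ between genotypes by more than the spread. Ngp encodes neutrophilic granule protein, a member of the cystatin superfamily. Its levels were -3.54, 0.69, -0.90 and 2.01 on Card9-/- arrays 1 to 4, against 0.32, -0.057, -0.71 and 2.71 on wt arrays 1 to 4. Card9-/- array 1 was not well above background and lay far below every other array, while array 4 was highest in each genotype. The difference was -0.999 (SE 1.16, 95% interval -3.61 to 1.61, limma adjusted p = 0.896), and without Card9-/- array 1 it was 0.035. Camp encodes the cathelicidin whose cleaved peptide kills bacteria. Its levels were -0.64, 2.70, 0.39 and 4.32 on Card9-/- arrays 1 to 4, against 1.50, 1.72, 1.44 and 3.08 on wt arrays 1 to 4. The Card9-/- arrays held both the lowest and the highest value, and 3 wt arrays lay close together below wt array 4. The difference was -0.24 (SE 0.99, 95% interval -2.47 to 1.98, limma adjusted p = 0.981), with 0.54 without Card9-/- array 1, 0.19 without Card9-/- array 3 and 0.14 without wt array 4.

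Ltf encodes lactoferrin, the iron-binding protein of specific granules. It had levels of -2.63, 1.58, -0.21 and 3.15 on Card9-/- arrays 1 to 4, against 0.60, 0.22, 0.0088 and 2.66 on wt arrays 1 to 4. As for Camp, the Card9-/- arrays spread beyond the wt arrays at both ends. The SD was 2.48 among Card9-/- arrays and 1.22 among wt arrays. The difference was -0.40 (SE 1.14, 95% interval -2.97 to 2.17, limma adjusted p = 0.968), with 0.63 without Card9-/- array 1 and 0.20 without wt array 4. From its lowest to its highest array Ltf covered a 54.7-fold range and Camp a 31.0-fold range, and Ngp covered at least 75.8-fold, its lowest array being not well above background.

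Lcn2 and Mmp8 stood out for a single wt array. Lcn2 encodes lipocalin 2, which binds bacterial siderophores and is made by neutrophils, macrophages and epithelia. The brighter probe had levels of 1.22, 2.89, 3.81 and 5.01 on Card9-/- arrays 1 to 4, against 2.51, 2.53, 2.98 and 7.16 on wt arrays 1 to 4. The 3 lower wt arrays lay close together, and wt array 4 was 18.1-fold above the next wt array. The fainter probe, which crosses an exon junction, gave the same picture, with wt array 4 30.1-fold above the next. The difference was -0.56 at the brighter probe (SE 1.14, 95% interval -3.13 to 2.00, limma adjusted p = 0.951), and it was 0.56 without wt array 4 and 0.11 without Card9-/- array 1. The fainter probe differed by -0.82.

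Mmp8 encodes neutrophil collagenase, a metalloproteinase of specific granules. Its levels were -1.04, 1.87, 2.30 and 2.82 on Card9-/- arrays 1 to 4, against -0.11, 0.065, -0.11 and 5.19 on wt arrays 1 to 4. Card9-/- arrays 2, 3 and 4 were thus above wt arrays 1, 2 and 3, but wt array 4 was highest of all and Card9-/- array 1 lowest, so that the groups overlapped throughout. Within wt, array 4 was 34.9-fold above the next array. The difference was 0.23 (SE 1.29, limma adjusted p = 0.988), and its 95% interval ran from 0.157-fold to 8.74-fold. Without wt array 4 it was 1.54, and leaving out another array turned it below 0 in 5 cases, with -0.039 without Card9-/- array 3, -0.22 without Card9-/- array 4, -0.23 without wt array 1, -0.17 without wt array 2 and -0.23 without wt array 3.

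Mmp9, which encodes gelatinase B and is made by activated macrophages as well as neutrophils, followed a somewhat different order. The brighter probe had levels of -2.39, 0.29, 1.71 and 0.32 on Card9-/- arrays 1 to 4, against -1.87, -1.75, 0.29 and 1.85 on wt arrays 1 to 4. Card9-/- array 3 and wt array 4 were high and close to each other, and Card9-/- array 1 with wt arrays 1 and 2 formed the low end. The difference was 0.35 (SE 1.03, 95% interval -1.96 to 2.67, limma adjusted p = 0.970), with -0.22 without Card9-/- array 3, -0.15 without wt array 1 and -0.11 without wt array 2. The fainter probe differed by 0.77, and there Card9-/- array 3 rather than wt array 4 was highest.

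Ly6g, the gene of the surface protein bound by the neutrophil antibody 1A8, had the lowest difference of the 10 genes. Its levels were -1.98, -0.67, -0.81 and 0.16 on Card9-/- arrays 1 to 4, against -0.20, 0.47, -0.80 and 1.82 on wt arrays 1 to 4. Array 4 was highest within Card9-/- and within wt, but 2 wt arrays, 2 and 4, lay above every Card9-/- array, and wt array 3 matched Card9-/- array 3. The group means were -0.82 ± 0.88 in Card9-/- and 0.32 ± 1.13 in wt (SD, n = 4 each). The difference was -1.14 (SE 0.64, 95% interval -2.58 to 0.30, limma adjusted p = 0.767). It stayed below 0 whichever array was left out, between -1.52 and -0.64.

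**Figure D2:**
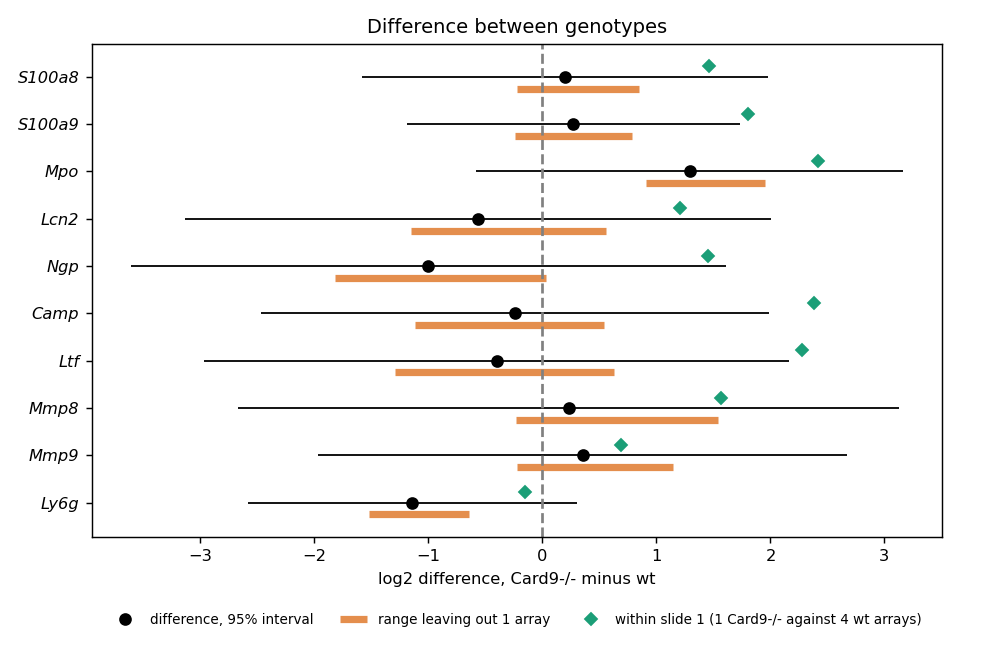
Difference in level for each gene, Card9-/- minus wt, on the log2 scale (black point and line, limma estimate and 95% interval over 4 and 4 arrays; orange bar, range of the estimate when each array was left out in turn; green diamond, Card9-/- array 4 minus the mean of the 4 wt arrays within slide 1). The interval of each gene includes 0, and the orange bar stays on a single side of 0 for Ly6g and Mpo.

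Comparing arrays within a slide moved the members' differences more than any scaling did. Within slide 1, where Card9-/- array 4 stands alone against 4 wt arrays, 9 of 10 differences were above 0 with a median of 1.51, the exception being Ly6g at -0.16. There Camp was 2.38, Mpo 2.42, Ltf 2.28, S100a9 1.81, Ngp 1.45 and Lcn2 1.21. Without Card9-/- array 4 the median over all remaining arrays was -0.68, with 2 differences above 0 and 8 below. These values rest on the level of a single Card9-/- array, and the part of the slide in them cannot be told apart from that of the array.

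What the members shared was their order over the arrays. The mean level of the 10 genes was -0.34, 2.37, 1.89 and 3.45 on Card9-/- arrays 1 to 4, against 1.16, 1.39, 1.47 and 3.75 on wt arrays 1 to 4. Array 4 was high in each genotype, the other 3 wt arrays lay close together, and Card9-/- array 1 was the lowest of all. For 6 of 10 members wt array 4 was the highest of the 8 arrays, as it was for 11.1% of the genes tested. For 3 of 10 Card9-/- array 4 was, as it was for 3017 of 18595 genes tested, more than the 2061 for wt array 4. For 9 of 10 members Card9-/- array 1 was the lowest, as it was for 12.6% of the genes tested. Mpo was the exception at both ends, with Card9-/- array 2 highest and wt array 2 lowest. The 10 members come from the same 8 RNA samples, so their shared order counts as 1 observation per array.

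**Figure D3:**
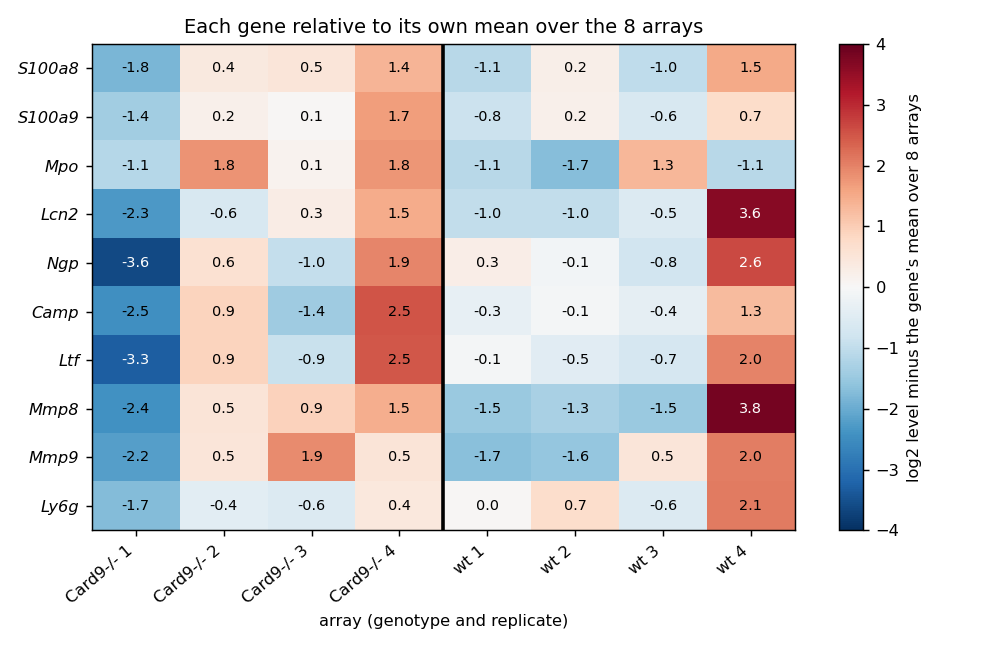
Level of each gene on each array minus the gene's own mean over the 8 arrays (log2 units; red above, blue below), with the Card9-/- arrays left of the black line and the wt arrays right of it. The column of Card9-/- replicate 1 is blue throughout and the columns of replicate 4 are mostly red, except that Mpo is low on wt replicate 4.

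Likeness of pattern was measured as the root mean square difference, over the 8 arrays, between 2 genes after each had its own mean subtracted, in log2 units, and the 3 nearest named genes were taken for each member. The members nearest to each other were Ngp and Ltf at 0.373, S100a8 and S100a9 at 0.406, and Camp and Ltf at 0.474. S100a8 was also near Retnlg (0.497) and Rnf24 (0.556), and S100a9 was nearest to Akap12 (0.384), with Tmem40 at 0.477. Ly6g was near Med22 (0.344), Rnf24 (0.389) and Lims1 (0.405). The Lcn2 pattern was nearest to Trem3 (0.487), Wfdc21 (0.527) and Chil1 (0.551), and that of Mmp8 to Mrgpra2a (0.337), Mrgpra2b (0.379) and Chil1 (0.392). For Mmp9 the nearest were Scrg1 (0.256), Hdc (0.417) and Pram1 (0.451). Beyond the members, Ngp was near Il1r2 (0.658) and Camp near Olfr576 (0.591) and Myh11 (0.602). Mpo had no close match, with Cavin2 at 0.642, Rab4a at 0.705 and Cobl at 0.710. Trem3, Med22, Olfr576, Myh11, Scrg1 and Cobl were not well above background on every array. Of the 30 pairs, 22 were kept with quantile normalization and 18 with normexp background correction, under which Ly6g kept 0 of its 3.

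Because the calprotectin genes, Ngp, Ltf, Camp, Lcn2, Mmp8 and Ly6g were all lowest on Card9-/- array 1 and highest on array 4 within each genotype, the 250 bases before their annotated starts are shown, from RefSeq on GRCm38.p6, 5′ to 3′ on the strand of the gene. They were chosen after the values had been seen. The windows are chr3:90668821-90669070 (plus strand) for S100a8, chr3:90695722-90695971 (minus strand) for S100a9, chr9:110419558-110419807 (plus) for Ngp, chr9:111019042-111019291 (plus) for Ltf, chr9:109849457-109849706 (minus) for Camp, chr2:32387740-32387989 (minus) for Lcn2, chr9:7558179-7558428 (plus) for Mmp8 and chr15:75155011-75155260 (plus) for the upstream start of Ly6g. Capitals mark matches, on either strand, to TTGCNNAA, the letters searched for C/EBP, to GAGGAAG, the core of a PU.1 site, and to TATAAA, the TATA box. C/EBP factors and PU.1 are the families known to drive granule genes in developing granulocytes.
S100a8: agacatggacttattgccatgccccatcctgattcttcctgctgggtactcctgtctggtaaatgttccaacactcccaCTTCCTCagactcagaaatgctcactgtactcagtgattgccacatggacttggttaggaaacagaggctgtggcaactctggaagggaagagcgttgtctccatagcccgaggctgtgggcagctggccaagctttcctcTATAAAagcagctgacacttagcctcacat
S100a9: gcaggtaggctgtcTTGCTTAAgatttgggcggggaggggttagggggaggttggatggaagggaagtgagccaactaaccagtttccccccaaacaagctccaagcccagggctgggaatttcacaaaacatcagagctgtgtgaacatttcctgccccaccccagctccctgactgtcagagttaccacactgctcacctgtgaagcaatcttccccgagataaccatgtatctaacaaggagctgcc
Ngp: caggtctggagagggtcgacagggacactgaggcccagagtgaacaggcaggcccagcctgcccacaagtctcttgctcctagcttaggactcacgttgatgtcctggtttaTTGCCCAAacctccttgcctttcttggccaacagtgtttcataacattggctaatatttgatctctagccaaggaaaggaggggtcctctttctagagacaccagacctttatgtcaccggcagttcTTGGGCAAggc
Ltf: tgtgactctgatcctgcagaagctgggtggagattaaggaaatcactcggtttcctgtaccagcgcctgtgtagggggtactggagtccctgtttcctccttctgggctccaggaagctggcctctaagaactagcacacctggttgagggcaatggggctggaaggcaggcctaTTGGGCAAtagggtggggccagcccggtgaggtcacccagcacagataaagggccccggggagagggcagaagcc
Camp: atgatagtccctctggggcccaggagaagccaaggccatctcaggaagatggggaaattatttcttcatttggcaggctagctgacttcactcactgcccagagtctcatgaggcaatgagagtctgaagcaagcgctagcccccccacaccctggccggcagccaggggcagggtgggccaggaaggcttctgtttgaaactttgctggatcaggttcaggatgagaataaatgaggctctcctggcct
Lcn2: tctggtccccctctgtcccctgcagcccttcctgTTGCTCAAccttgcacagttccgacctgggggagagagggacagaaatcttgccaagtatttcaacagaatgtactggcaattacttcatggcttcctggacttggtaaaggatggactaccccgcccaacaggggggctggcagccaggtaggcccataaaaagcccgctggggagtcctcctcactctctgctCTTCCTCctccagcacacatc
Mmp8: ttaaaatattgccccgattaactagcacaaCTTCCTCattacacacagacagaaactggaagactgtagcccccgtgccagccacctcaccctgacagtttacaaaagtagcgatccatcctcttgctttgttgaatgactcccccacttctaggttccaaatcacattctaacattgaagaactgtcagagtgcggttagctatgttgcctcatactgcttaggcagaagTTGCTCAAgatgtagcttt
Ly6g: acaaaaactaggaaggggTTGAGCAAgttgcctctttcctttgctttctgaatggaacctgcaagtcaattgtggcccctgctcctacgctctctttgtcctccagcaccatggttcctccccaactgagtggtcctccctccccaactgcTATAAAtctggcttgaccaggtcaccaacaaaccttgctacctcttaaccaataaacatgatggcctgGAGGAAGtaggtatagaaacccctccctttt
Of the 10 members, 9 had an entry in the promoter table and Mmp9 is named only. The letters TTGCNNAA were found in 6 of 9 genes (Lcn2, Ltf, Ly6g, Mmp8, Ngp and S100a9). Counted by promoter this was 6 of 10, against 9.56% of 32851 promoters of the same length. GAGGAAG was found in 5 of 9 genes (Lcn2, Ly6g, Mmp8, Mpo and S100a8), or 6 of 10 promoters, against 10.6% of all promoters. TATAAA was found in 2 of 9 genes (Ly6g and S100a8), or 3 of 10 promoters, against 12.4%. The downstream start of Ly6g is not printed. Its window overlaps the printed Ly6g window and held GAGGAAG and TATAAA but not TTGCNNAA. Ngp held the C/EBP letters 138 and 11 bases before its start, Ltf 75, Lcn2 216, Mmp8 19 and S100a9 236 bases before. No match overlapped another, and the Camp window held none of the 3. A match is a description of these letters and was not tested as a binding site.

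In 4 further lists of the neutrophil lineage, with 9, 17, 3 and 5 genes tested, 0 passed an adjusted or an unadjusted limma p of 0.05. The shares over all genes were 0.0269% and 7.23%, at which lists this small can hold 0. Of 12 further specific and gelatinase granule genes, 9 were tested (Fcnb, Olfm4 and Mmp25 were too dim), with 4 differences above 0 and 5 below, a median of -0.21, and wt array 4 highest for 6 of 9. The 2 with the smallest p were Cybb, the catalytic subunit of the phagocyte oxidase, at -0.88 (SE 0.51, limma adjusted p = 0.776), and Adam8, a granule metalloproteinase, at -1.24 (SE 0.73, adjusted p = 0.785). Of 17 neutrophil surface and cytosol genes tested, 7 were above 0 and 10 below, with a median of -0.061, and wt array 4 was highest for 10. There Lrg1 differed by -2.07 (SE 1.71, adjusted p = 0.854) and Padi4, which citrullinates histones in neutrophils, by -1.67 (SE 1.40, adjusted p = 0.855). Both were highest on wt array 3, without which they differed by -0.54 and -0.39. Adam8 differed by -0.74 without wt array 4.

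Of 6 other azurophil genes, 3 were too dim to test (Prtn3, Bpi and Ms4a3). Elane, which encodes neutrophil elastase, had levels of -1.53, -2.22, -2.88 and 0.53 on Card9-/- arrays 1 to 4, against -1.94, -2.02, 0.04 and -1.19 on wt arrays 1 to 4. Card9-/- array 4 and wt array 3 were the high arrays, and the difference was -0.25 (SE 0.76, limma adjusted p = 0.971). Cst7, a cystatin, differed by 0.59 (SE 0.85, adjusted p = 0.923). It differed by 0.018 without wt array 1 and by 0.099 without wt array 2. With array weights, a setting that called 587 of 18605 genes, Cst7 differed by 2.15 (limma adjusted p = 0.0491). Elane thus shared with Mpo a high Card9-/- array 4 and wt array 3, but not the high Card9-/- array 2.

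The transcription factors of granulocyte development gave 1 difference above 0 and 4 below among 5 tested, with Cebpa too dim. Spi1, which encodes PU.1, differed by -0.93 (SE 0.51, limma adjusted p = 0.760), and Cebpe, the factor of the specific granule stage, by -0.97 (SE 0.78, adjusted p = 0.852), or by -0.41 without Card9-/- array 1 and -0.43 without wt array 4. Receptors and inhibitors of the products gave 2 above 0 and 7 below among 9 tested, with Itln1, a lactoferrin receptor, too dim. Timp3, an inhibitor of metalloproteinases, differed by 0.86 (SE 0.80, adjusted p = 0.867), or by 0.10 without Card9-/- array 4. Timp2 differed by -1.53 (SE 1.62, adjusted p = 0.889), or by 0.15 without wt array 3. Medians were -0.84 and -0.46 for these 2 lists.

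The macrophage markers varied between the same arrays, in another order. The mean level of 13 macrophage markers was 2.27, 1.99, 2.38 and 2.39 on Card9-/- arrays 1 to 4, against 0.46, 0.76, 6.70 and 5.04 on wt arrays 1 to 4. wt arrays 3 and 4 were thus far above the other 6, and 12 of the 13 were highest on wt array 3, where the mean of the granule genes was 1.47. When the levels were averaged on the linear scale, the log2 of that mean ran from 3.85 to 4.79 on Card9-/- arrays. On wt arrays it ran from 3.15 to 7.96. Mertk was too dim to test, as was Gata6 among the markers of resident peritoneal macrophages, of which 9 of 9 tested were highest on wt array 3. Itgam, the integrin that neutrophils and macrophages share, differed by -1.32 (SE 0.67, limma adjusted p = 0.737), and Lgmn by -0.87 (SE 0.46, adjusted p = 0.753). Among resident markers, Cd163 differed by -1.83 (SE 1.06, adjusted p = 0.775) and F5 by -1.77 (SE 1.33, adjusted p = 0.837). Without wt array 3 these differences were -0.79 for Itgam, -0.46 for Lgmn, -0.80 for Cd163 and -0.67 for F5, and with normexp background correction Cd163 gave -0.43.

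The markers of red cell precursors and platelets had mean levels of 4.58, 2.75, 2.90 and 6.98 on Card9-/- arrays 1 to 4, against 3.53, 1.98, 4.19 and 0.74 on wt arrays 1 to 4. Their level was highest on Card9-/- array 4 and lowest on wt array 4, which were the 2 arrays with the highest mean of the granule genes. Of 9 tested, 8 were highest on Card9-/- array 4. With limma 0 of 9 passed an adjusted p of 0.05, against 0.0269% of all genes. An unadjusted p of 0.05 was passed by 2, both higher in Card9-/-, against 2.64% of all genes in that direction. Natural killer and T cell markers were above 0 in 8 of 8 and 11 of 11 cases, with 7 and 9 at an unadjusted p under 0.05, against 2.64% of all genes in that direction, and none passed adjustment. Differences were above 0 for 7 of 8 B cell and 3 of 5 mesothelial markers. Monocyte markers, with 5 of 9 differences above 0, had mean levels of 2.30, 2.77, 2.84 and 3.30 on Card9-/- arrays 1 to 4, against 1.77, 1.72, 3.37 and 4.17 on wt arrays 1 to 4. Eosinophil and mast cell markers, with 2 of 14 above 0, had -1.14, 1.56, 1.01 and -0.028 on Card9-/- arrays 1 to 4, against -0.54, -0.48, 2.21 and 2.27 on wt arrays 1 to 4. Both lists were highest on wt array 4, as the granule genes were, and the eosinophil and mast cell list was also lowest on Card9-/- array 1. The part of these other cells in the members' values was not tested.

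**Figure D4:**
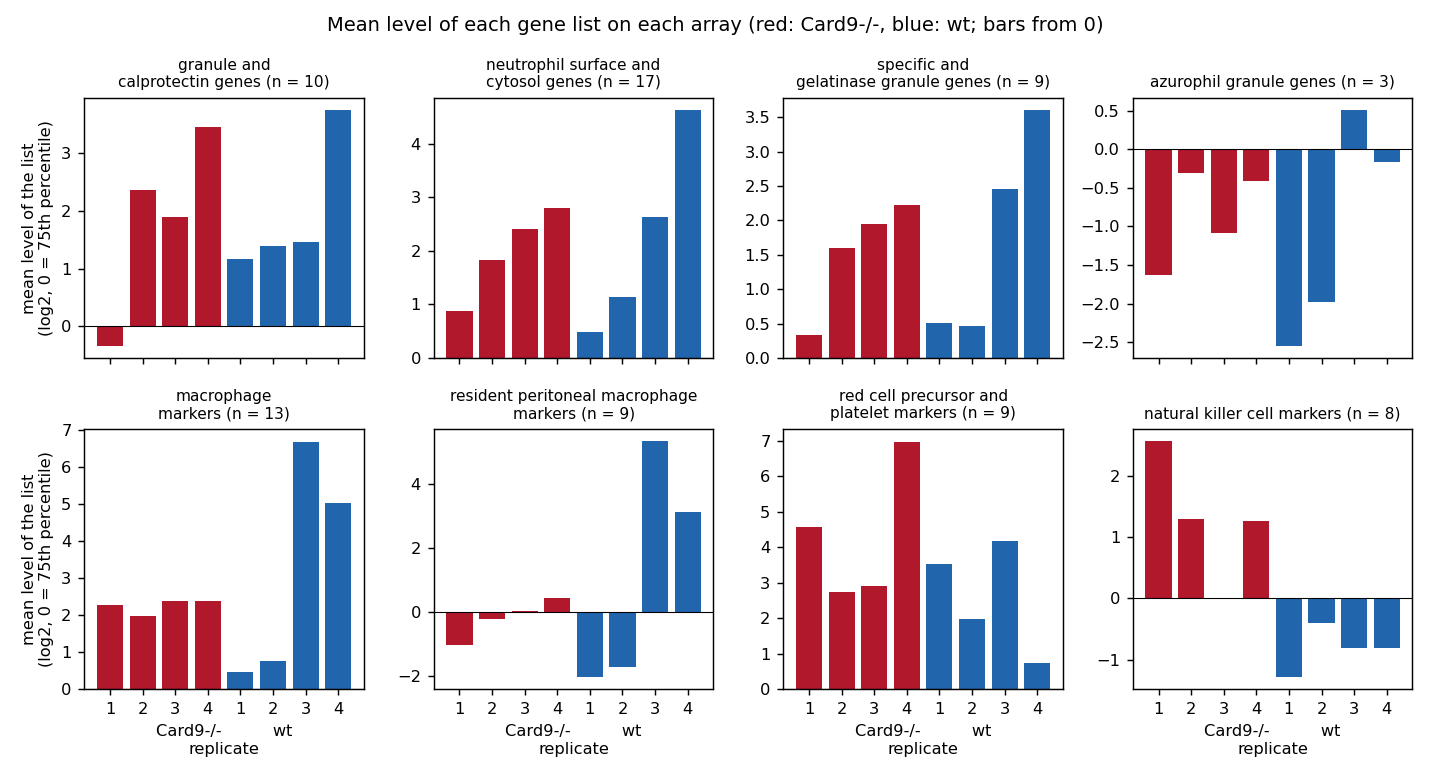
Mean level of 8 gene lists on each array (log2 units, 0 being the array's 75th percentile; bars start at 0; red, Card9-/- replicates 1 to 4; blue, wt replicates 1 to 4; n, genes tested in the list). The granule and calprotectin genes and the neutrophil surface genes are highest on wt replicate 4, the macrophage lists on wt replicate 3 and the red cell list on Card9-/- replicate 4.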

How the data were processed

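RNA of 4 Card9-/- and 4 wt peritoneal macrophage samples had been hybridized to single-colour arrays, and groups and replicate numbers were taken from the labels. The scanner files that the authors deposited hold the intensity of each spot, read and corrected for background by Agilent's Feature Extraction software, version 10.7.1.1, per the file headers. The deposited series matrix holds log2 values from the authors, with a median of 4.49 in each column and a normalization not given in the sources used here. After its first 49659 rows its identifiers and values no longer lined up with the scanner files, and its columns matched the scanner file of their own replicate in 2 of 8 cases (8 of 8 by genotype), so it served as an alternative over those rows.

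The processed signal was taken to log2, minus the array's 75th percentile of non-control spots. Outlier spots, 63 to 213 on an array, were left out, and 3 usable arrays per group were required. Probes well above background on at least 3 arrays of either group were kept (28169), and the probe with the highest mean stood for each of 18605 genes. Names were updated through the GRCm38.p6 gene table (32983 probes by accession, 10222 by symbol, 520 by synonym). The test between genotypes was that of limma 3.58.1 (R 4.3.3, with the data.table package at version 1.17.8), two-sided, adjusted by Benjamini-Hochberg over all genes, and the code was tested on simulated data. A level at or below background sets a bound. For the Card9 folds, Card9-/- levels were raised to the lowest level well above background on their array, and wt levels were kept as measured. The number of arrays limits the precision.

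The rule for naming was Card9, then the 10 members and their probes, then up to 2 genes of each list with the smallest unadjusted p where none passed, then the 3 nearest patterns of each member, and the other genes named, such as those too dim to test or past the threshold, were chosen after their values were seen. Some genes that the rule names are not reported here. The members and lists were chosen with earlier results of these data known. The replicate numbers were not taken as pairs. Deviations of same-numbered arrays correlated at -0.13, 0.25, -0.12 and -0.28, which cannot exclude a pairing of the samples. Alternatives changed the scaling, the background correction, the filter, the probe rule, the outlier spots, the source of values, the slide and scan terms, the array weights, the averaging of wt arrays 1 and 2 (correlation 0.985) and the arrays included.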

Additional observations from a re-analysis of the deposited data

Results flagged for a closer look

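Among the members, 20 groups of 4 arrays were searched for a lone array, by the gap to its nearest neighbour as a share of the group's range, against Dixon's critical value for 4 samples. Chance alone marks about 1 in 20 such groups, and 3 were marked, each for wt replicate 4. Lcn2 stood at 7.16 on that array, against 2.51 to 2.98 on the other wt arrays (share 0.9). Camp stood at 3.08, against 1.44 to 1.72 (share 0.83), only just past the critical value. Mmp8 stood at 5.19, against -0.11 to 0.065 (share 0.966). The 3 genes were read from the same RNA, so they are not independent. On the same array the macrophage markers were also above those of wt replicates 1 and 2, and the red cell markers were the lowest of the 8 arrays; their part was not tested.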

How the results depend on the processing

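Each result was recomputed under 22 alternatives, 8 of which left out a single array. The count of 0 members called held under all of them except array weights, which called 1 member (Mpo, difference 2.38), and 587 genes. All genes called numbered 0 with slide as a block and 0 within slide 1, and 5 to 6 without a single array. The replicate block, a term for the replicate numbers, which were not taken as pairs, gave 3 calls and 0 members. The median member difference was 1.51 with slide as a block and within slide 1, where it rests on Card9-/- array 4, and ran between -0.68 and 0.71 without a single array. Both slide settings turned Lcn2 to 1.21, Ngp to 1.45, Camp to 2.38, Ltf to 2.28, Elane to 1.81 and Cst7 to -0.39. Array weights turned Lcn2 to 0.39, Ltf to 0.19, Adam8 to 0.39, Lrg1 to 0.71, Padi4 to 1.07, Cebpe to 0.62, Timp2 to 1.43, Cd163 to 0.32 and F5 to 0.98, and called Cst7 at 2.15. The scan as a random block (correlation 0.118) turned Camp to 0.069, and averaging wt arrays 1 and 2 turned Mmp8 to -0.20 and Mmp9 to -0.13. Without a single array the difference ran between -0.22 and 0.85 for S100a8, -0.24 and 0.78 for S100a9, -1.16 and 0.56 for Lcn2, -1.82 and 0.035 for Ngp, -1.12 and 0.54 for Camp, -1.29 and 0.63 for Ltf, -0.23 and 1.54 for Mmp8, -0.22 and 1.14 for Mmp9, -0.94 and 0.20 for Elane and -2.70 and 0.15 for Timp2. The cause of these shifts was not tested. Ly6g stayed below 0 (-1.52 to -0.16) and Mpo above 0 (0.91 to 2.42) under all 22. Scaling to the median moved the median of all genes to -0.26, against -0.088, and turned no member.

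With 4 arrays a group and a median SE of 1.01, the intervals of most members still allow a several-fold difference either way. Ngp on Card9-/- array 1 and the fainter Mpo probe on 7 arrays were not well above background.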
